A study of Mus musculus with 10 samples.

Results

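The proteasome genes described here are the 48 genes on the array whose symbol is Psma, Psmb, Psmc, Psmd, Psme, Psmf or Psmg followed by a number, out of 19938 genes measured by a probeset of 1 symbol. The rule uses the symbol and no measured value, although it was written with earlier results of these data known. For the 5 of them with several such probesets, the probeset with the highest mean over the 10 arrays was used. The RNA came from the perfused whole brains of 10 female C57BL/6 mice aged 6 to 8 weeks, and each brain was hybridised to its own Affymetrix GeneChip mouse gene array. On the shaved back, 5 mice received 80 mg of Aldara, a cream with 5% imiquimod, a small molecule that activates the endosomal RNA receptor TLR7. The other 5 mice received the same amount of an aqueous control cream, and brains of both groups were taken 24 h after the last of 5 applications given 24 h apart. Both groups were thus shaved and handled alike, but the aqueous cream was not the base of Aldara, so that the effects of imiquimod and of the other ingredients of Aldara cannot be told apart here. The comparison asked which genes of the brain differ between mice given Aldara and mice given the control cream. Inflammation of the skin and exposure to the cream itself cannot be told apart in it.

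The proteasome is the large protease that degrades proteins tagged with ubiquitin. Its core, the 20S particle, is a barrel of alpha and beta subunits in which only a few of the beta subunits cut peptide bonds. The 19S particle caps the barrel, binds ubiquitin and unfolds the substrate with a ring of ATPases. Interferons induce alternative catalytic subunits that take the place of the constitutive ones during assembly, and the particle that results, the immunoproteasome, yields many of the peptides that MHC class I molecules present to T cells. Interferons also induce the alpha and beta subunits of PA28, an activator that opens the barrel without the need for ubiquitin. In the healthy brain most proteasomes are of the constitutive type, while microglia and invading leukocytes can carry the immune type.

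All values are log2 expression values, on which a difference of 1 is a doubling. Groups were compared with limma, a linear model fitted to all probesets at once with moderated variances, and a gene was called higher or lower at a Benjamini-Hochberg adjusted p under 0.05 over the 23410 probesets with a symbol. The p-values set the difference between the groups against the moderated spread between the mice of each group. With 5 arrays in each group, that number sets how precise a value can be. The median log2 value was 8.10 to 8.14 on control arrays and 8.16 to 8.19 on Aldara arrays, and arrays of the same group correlated at 0.995 or more. Levels of different genes were not compared, because probesets differ in brightness. The values come without detection calls, so that a dim gene cannot be separated from background.

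The 5 genes of the immunoproteasome and of PA28 alpha and beta rose in the brains of Aldara-treated mice, by 1.72-fold to 4.19-fold, and these 5 were the proteasome genes that rose by at least 1.5-fold. Across all 48 proteasome genes, 23 were higher, 0 were lower and 25 did not pass. Of all probesets tested, 12.4% were called higher and 21% lower, and 3.05% were higher by at least 1.5-fold. In 18 of the 48 genes the lowest Aldara value lay above the highest control value, against 10.5% of all probesets, and the reverse was seen in 0 of the 48, against 15.3%. The median log2 difference of the 48 genes was 0.10, while that of all genes was -0.05. In bulk RNA, more cells of a type and more RNA per cell cannot be told apart. All 10 markers of leukocytes and macrophages were higher in the same brains, and their part in these differences was not tested.

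**Figure D1:**
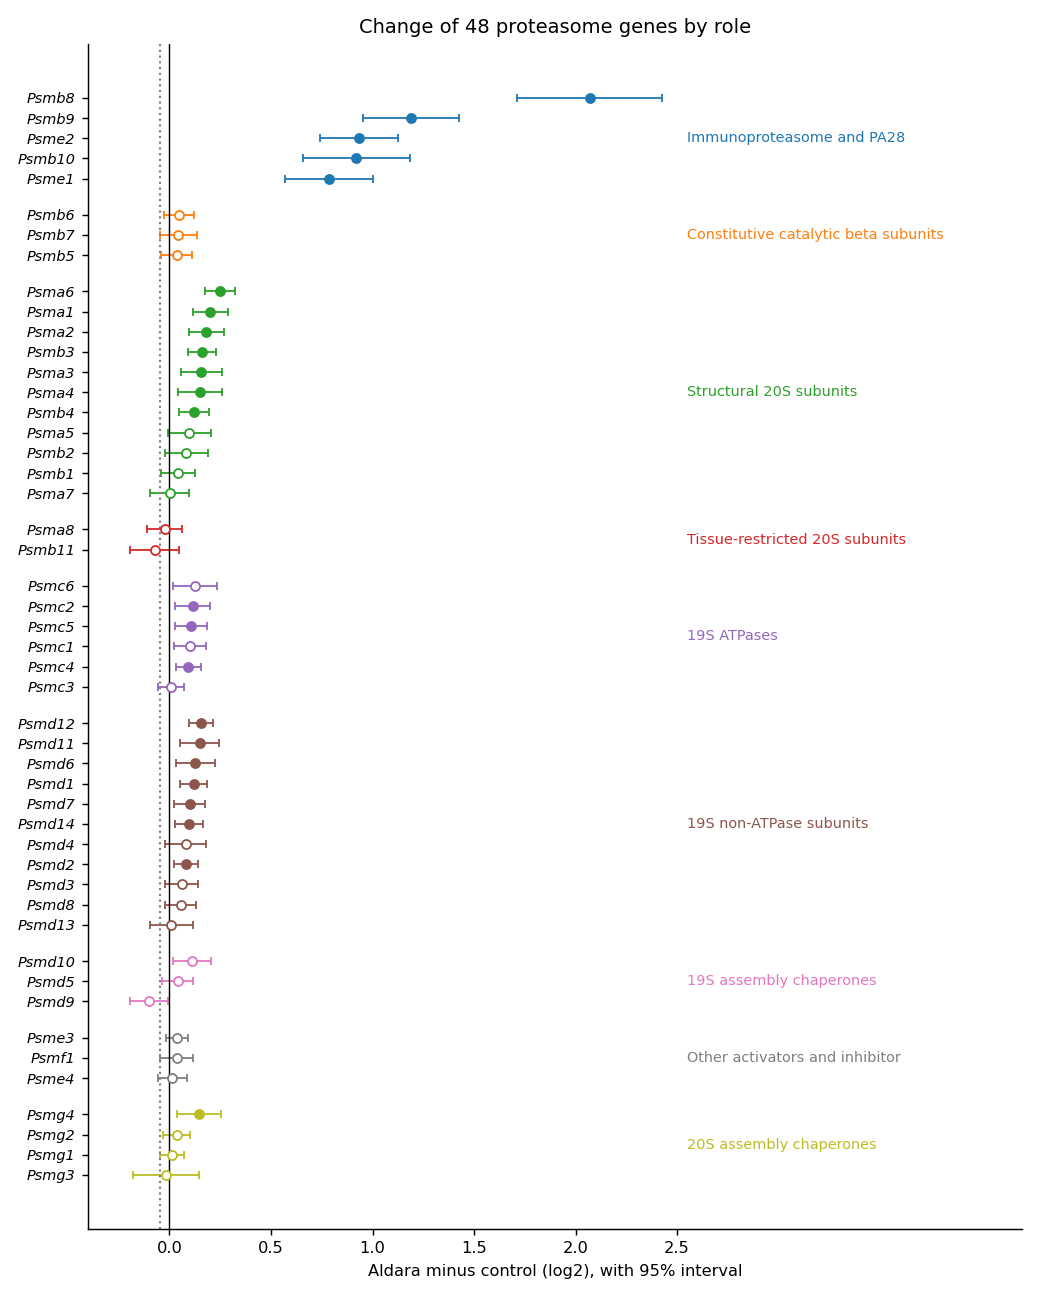
Log2 difference between 5 Aldara-treated and 5 control brains (horizontal axis) for each of the 48 proteasome genes, grouped by role, with 95% intervals from limma; filled points passed at an adjusted p under 0.05, open points did not, and the dotted line is the median of all genes. The 5 genes of the immunoproteasome and PA28 lie between 0.79 and 2.07, and the other 43 lie between -0.10 and 0.25.

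Psmb8, which encodes the catalytic subunit beta5i of the immunoproteasome, showed the largest difference of the 48 genes. Its log2 values were 6.68, 6.48, 6.71, 6.70 and 6.66 in control mice 1 to 5 and 8.52, 8.47, 8.71, 8.42 and 9.46 in Aldara mice 1 to 5. The groups did not overlap, and Aldara mouse 5 stood above the other 4. The difference was 2.07 (standard error 0.16), a 4.19-fold rise with a 95% interval of 3.27 to 5.38 (adjusted p = 1.8e-06 from limma).

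Psmb9 encodes beta1i, the immune counterpart of the subunit that cuts after acidic residues. It measured 8.15, 8.29, 8.04, 8.26 and 8.24 in control mice and 9.39, 9.17, 9.29, 9.23 and 9.84 in Aldara mice. Psmb10 encodes beta2i, the third catalytic subunit of the immunoproteasome, and measured 9.03, 8.83, 8.94, 8.94 and 8.94 in control mice against 9.79, 9.58, 9.82, 9.70 and 10.39 in Aldara mice. Both genes were separated between the groups, and in both Aldara mouse 5 was again the highest. The rise was 2.28-fold for Psmb9 (log2 difference 1.19, standard error 0.11, adjusted p = 5.4e-06 from limma). For Psmb10 it was 1.89-fold (log2 difference 0.92, standard error 0.12, adjusted p = 1.2e-04 from limma). The 95% intervals of Psmb9, 1.94-fold to 2.68-fold, and of Psmb10, 1.58-fold to 2.27-fold, overlapped with each other and did not reach that of Psmb8. Probesets can differ in how far they compress a change, and the order of the 3 genes was not tested.

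Psme1 and Psme2 encode the alpha and beta subunits of PA28, which form a mixed ring. Psme1 measured 9.32, 9.29, 9.42, 9.41 and 9.33 in control mice and 10.05, 9.91, 10.35, 9.92 and 10.48 in Aldara mice. Psme2 measured 9.43, 9.46, 9.60, 9.49 and 9.59 in control mice and 10.38, 10.25, 10.41, 10.38 and 10.82 in Aldara mice. Every Aldara value of each gene exceeded every control value. Psme1 rose 1.72-fold (log2 difference 0.79, standard error 0.10, adjusted p = 9.2e-05 from limma) and Psme2 rose 1.91-fold (0.93, standard error 0.09, adjusted p = 7.6e-06). The 95% intervals of these folds, 1.48 to 2.00 and 1.67 to 2.18, overlapped. A further probeset carries the symbols of both Psme2 and its near-identical copy Psme2b, and it rose by 1.199 on the log2 scale (standard error 0.13, adjusted p = 2.1e-05 from limma). Transcripts of Psme2 and of the copy cannot be told apart on that probeset.

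**Figure D2:**
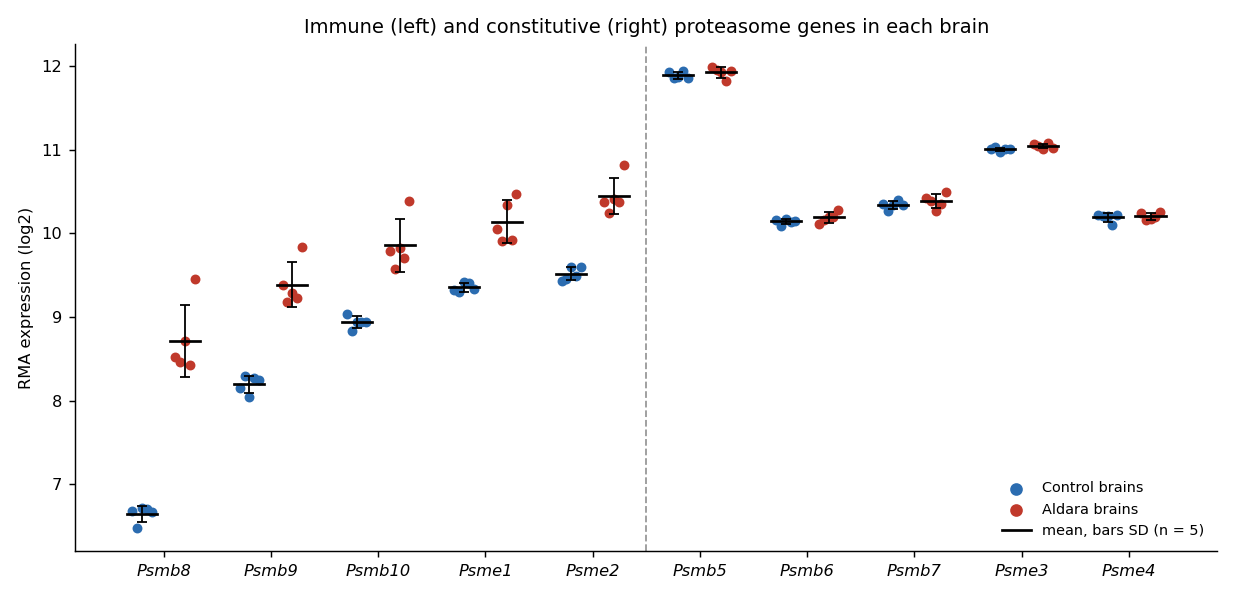
Log2 expression value (vertical axis) in each of the 5 control and 5 Aldara-treated brains for the immune genes Psmb8, Psmb9, Psmb10, Psme1 and Psme2 and for the constitutive genes Psmb5, Psmb6, Psmb7, Psme3 and Psme4; each point is 1 mouse, and lines with bars give the mean and SD (n = 5). The groups do not overlap in any of the 5 immune genes and overlap in each of the 5 constitutive ones.

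The constitutive catalytic subunits that these immune subunits replace did not pass the test. Psmb5 encodes beta5, the subunit with chymotrypsin-like activity whose place Psmb8 takes, and measured 11.93, 11.86, 11.87, 11.94 and 11.86 in control mice and 11.99, 11.95, 11.93, 11.82 and 11.95 in Aldara mice. Psmb6, which encodes beta1, measured 10.16, 10.09, 10.18, 10.14 and 10.15 against 10.12, 10.16, 10.20, 10.19 and 10.29. Psmb7, which encodes beta2, measured 10.35, 10.27, 10.34, 10.40 and 10.35 against 10.43, 10.39, 10.27, 10.35 and 10.49. The groups overlapped in all 3 genes, and the mean of the Aldara mice was higher by 0.04, 0.05 and 0.04 (adjusted p = 0.454, 0.317 and 0.454 from limma). The 95% intervals of the folds ran from 0.973 to 1.08 for Psmb5, from 0.981 to 1.09 for Psmb6 and from 0.968 to 1.10 for Psmb7. None of the 3 intervals reached 1.48-fold, the lower limit of Psme1.

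The remaining activators and the inhibitor did not pass either. Psme3 encodes PA28 gamma, a nuclear relative of PA28 alpha and beta, and measured 11.01, 11.03, 10.98, 11.01 and 11.01 in control mice and 11.07, 11.04, 11.02, 11.08 and 11.02 in Aldara mice. Its log2 difference was 0.04 (standard error 0.03), with a 95% interval of the fold from 0.988 to 1.07 (adjusted p = 0.275 from limma). Psme4, which encodes the activator PA200, had values of 10.10 to 10.22 in control mice and 10.16 to 10.26 in Aldara mice, with a difference of 0.01 (adjusted p = 0.778 from limma). Psmf1, which encodes the inhibitor PI31, had a difference of 0.03 (adjusted p = 0.502 from limma). All 3 genes of this group overlapped between the groups of mice.

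Each catalytic immune subunit was then set against the constitutive subunit it replaces, and PA28 alpha and beta were set against PA28 gamma, a relative that they do not replace. This was done within the same brain, as the difference of their log2 values on 1 array. Only the change of this difference between the groups of mice is given, since its level depends on the probesets. Psmb8 gained 2.03 on Psmb5 (95% interval 1.59 to 2.47), which is 4.09-fold. Psmb9 gained 1.14 on Psmb6 (0.87 to 1.41), or 2.21-fold, and Psmb10 gained 0.88 on Psmb7 (0.59 to 1.16), or 1.84-fold. Psme1 gained 0.75 (0.45 to 1.05) and Psme2 gained 0.89 (0.64 to 1.15) on Psme3, that is 1.68-fold and 1.86-fold. All 5 differences were higher in every Aldara mouse than in any control mouse. Over the 252 ways to relabel the arrays, the exact two-sided permutation test gave p = 0.00794 for each pair, the smallest value it can give, and 0.00794 after adjustment over the 5 pairs. The pairs rest on shared arrays, and PA28 gamma enters 2 of them, so that they are not independent. Each change of a pair is also the difference of 2 single-gene changes given above, on the same arrays. The permutation test therefore restates those changes and adds no separate evidence. In bulk RNA, a shift between subunits inside 1 cell type cannot be told apart from a larger share of cells that carry the immune type.

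**Figure D3:**
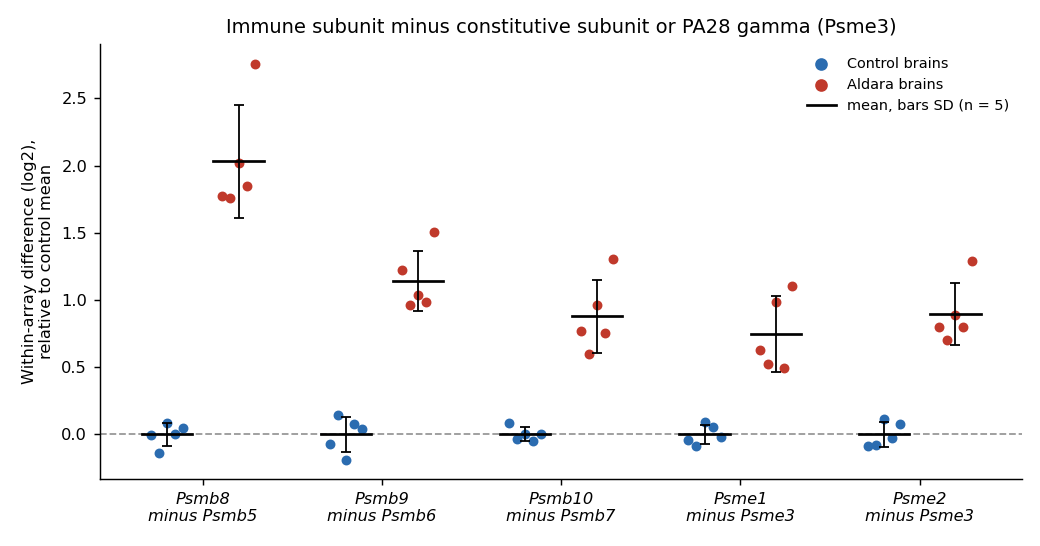
Within-array log2 difference between a catalytic immune subunit and the constitutive one it replaces, or between PA28 alpha or beta and PA28 gamma (Psme3), relative to the mean of the control mice (vertical axis), for 5 pairs; each point is 1 of 5 control or 5 Aldara-treated brains, with the mean and SD of each group. In all 5 pairs every Aldara point lies above every control point, and the gain is largest for Psmb8 against Psmb5, at 2.03.

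The other subunits of the barrel, the alpha subunits Psma1 to Psma7 and the non-catalytic beta subunits Psmb1 to Psmb4, are shared by both forms of the proteasome. Of these 11 structural genes, 7 were higher and 0 were lower, against 12.4% and 21% of all probesets. The median log2 difference of the 11 was 0.15, with no rise above 1.19-fold. The 7 were Psma1, Psma2, Psma3, Psma4, Psma6, Psmb3 and Psmb4, and in each of them the groups did not overlap, which held together with a call for 10.3% of all probesets.

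Psma6, which encodes subunit alpha1, had the largest difference among the genes outside the immune group. It measured 10.96, 10.96, 10.97, 10.88 and 10.96 in control mice and 11.21, 11.15, 11.12, 11.20 and 11.28 in Aldara mice. The difference was 0.25 (standard error 0.03, adjusted p = 1.8e-04 from limma). Psma1, which encodes alpha6, ranged from 10.46 to 10.54 in control mice and from 10.65 to 10.84 in Aldara mice, a difference of 0.20 (adjusted p = 0.00181 from limma). Psma2, Psmb3, Psma3, Psma4 and Psmb4 differed by 0.18, 0.16, 0.16, 0.15 and 0.12, which are rises of 1.13-fold, 1.12-fold, 1.12-fold, 1.11-fold and 1.09-fold. The adjusted p-values of these 5 genes lay between 0.00228 and 0.0329. Psma3 and Psmb3 were each measured by further probesets, and all of these were called higher too. On one of those of Psma3 the groups overlapped, with a lowest Aldara value of 10.717 and a highest control value of 10.724. Psma5, Psmb2, Psmb1 and Psma7 did not pass, with differences of 0.10, 0.08, 0.04 and 0.00. The 95% interval of the Psma7 fold, 0.936 to 1.07, left out the folds of the 7 genes that rose.

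Of the 48 genes, 17 encode subunits of the 19S cap, which also has subunits whose symbols do not match the rule. All 17 had differences above 0, and 10 of them were higher, against 12.4% of all probesets. This count rested on single mice, since it was 3 without Aldara mouse 5, 4 without Aldara mouse 1 or 4 or control mouse 5, 5 without control mouse 2 and 6 without control mouse 1, 3 or 4. It was 7 without Aldara mouse 3 and 11 without Aldara mouse 2, while the count of structural genes of the barrel was 6 or 7 without any 1 mouse. Among the 6 ATPases of the cap, which unfold the substrate, 3 were higher and 0 lower. These were Psmc2, Psmc5 and Psmc4, with differences of 0.12, 0.11 and 0.09 (adjusted p = 0.0404, 0.0412 and 0.0241 from limma), and only in Psmc4 did the groups not overlap. Psmc6, Psmc1 and Psmc3 had differences of 0.13, 0.10 and 0.01 and did not pass (adjusted p = 0.0745, 0.0519 and 0.862).

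Among the 11 non-ATPase subunits of the cap that match the rule, 7 were higher and 0 lower, with a median difference of 0.10. Psmd12, a scaffold subunit of the lid, measured 10.24 to 10.28 in control mice and 10.38 to 10.48 in Aldara mice, and its difference of 0.15 (standard error 0.03) had the smallest adjusted p of the cap, 8.4e-04 from limma. Psmd11, another scaffold subunit of the lid, and Psmd6 differed by 0.15 and 0.13 with overlap between the groups. Psmd1 and Psmd2, the large subunits of the base, differed by 0.12 and 0.08, and Psmd14, the enzyme that removes ubiquitin from the substrate, by 0.10, all 3 without overlap. Psmd7, the partner of Psmd14, differed by 0.10. Psmd4, a ubiquitin receptor, Psmd3, Psmd8 and Psmd13 had differences of 0.08, 0.06, 0.05 and 0.01 and did not pass.

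Taking the catalytic and structural subunits of the barrel and the subunits of the cap as the constitutive proteasome, 17 of 31 genes were higher, 12 of them without overlap, and 0 were lower. Of all probesets, 12.4% were called higher, 10.3% were higher without overlap and 21% were lower. The difference was above 0 in all 31 genes, from 0.00 to 0.25, with a median of 0.10 against -0.05 for all genes. The lower limit of the 95% interval was 1.48-fold for Psme1, the immune gene with the smallest rise, and the upper limit for Psma6 was 1.25-fold, so that no interval of the 5 immune genes met an interval of the 31.

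The calls among the constitutive genes depended on how the arrays were scaled, and those among the immune genes did not. After centring of every array on 1 median, the median difference of all genes moved from -0.05 to -0.09, and 5 of the 31 constitutive genes remained higher, namely Psma1, Psma2, Psma6, Psmb3 and Psmd12, against 9.82% of all probesets. With quantile normalisation of the deposited values 19 of 31 were higher, against 12.5% of all probesets. After the Aldara arrays were shifted so that the median probeset did not differ, 19 were higher too, against 16.4%, and 11.8% of all probesets were then lower. The median difference of the 11 structural genes was 0.10, 0.14 and 0.19 in these 3 scalings, and that of the 17 genes of the cap was 0.05, 0.11 and 0.14. The catalytic subunits Psmb5, Psmb6 and Psmb7 were not called under any of them, with medians of -0.005, 0.05 and 0.08. The 5 immune genes were called higher under all 4 scalings.

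**Figure D4:**
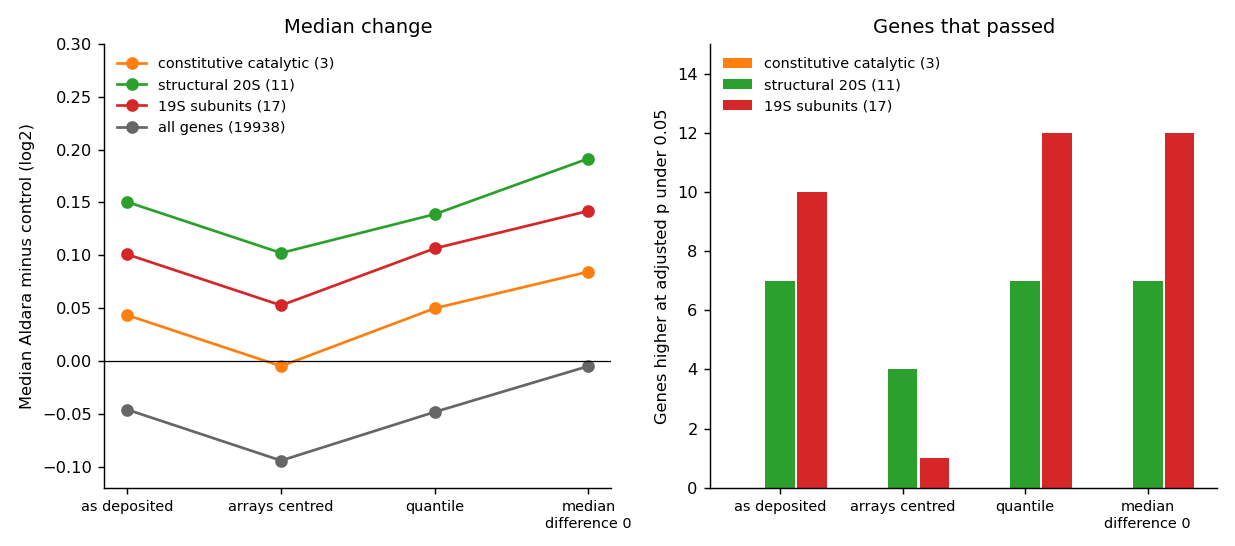
Left, median log2 difference (vertical axis) of 3 constitutive catalytic genes, 11 structural 20S genes, 17 19S genes and all genes under 4 scalings of the arrays; right, number of genes called higher in the constitutive groups under each. Of the 31 constitutive genes, 17 were higher in the deposited values and 5 with arrays centred on a common median.

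Among the chaperones that assemble the particles, 1 of 4 for the barrel and 0 of 3 for the cap were higher. Of the 20S chaperones, Psmg4 was higher by 0.14 (standard error 0.05, adjusted p = 0.0424 from limma) with overlapping groups, but it lost this call in 7 of the 10 fits without 1 mouse and in 6 other settings, among them centring of the arrays (adjusted p = 0.113) and quantile normalisation (adjusted p = 0.174). Psmg1, Psmg2 and Psmg3 had differences of 0.01, 0.04 and -0.02. Of the 19S chaperones, Psmd10 differed by 0.11 with groups that did not overlap, but with an adjusted p of 0.0611 from limma. Psmd9 measured 8.26 to 8.41 in control mice and 8.11 to 8.33 in Aldara mice, a difference of -0.10 (adjusted p = 0.0886 from limma). It was called lower with arrays centred on a common median, where the difference was -0.15 with an adjusted p of 0.00752 from limma, and with quantile normalisation, where the adjusted p was 0.0141. Of all probesets, 41% were called lower with the first of these scalings and 26.9% with the second. Psmd5 had a difference of 0.04. The tissue-restricted subunits Psma8, known from testis, and Psmb11, known from the thymus, had log2 means of 5.94 and 6.95 in control mice and differences of -0.02 and -0.07, and neither passed.

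Aldara mouse 5 had the highest value of the 10 mice in all 5 immune genes and in 25 of the 31 constitutive ones. Over the 48 genes it was highest in 37, or 77.1%, whereas it was highest in 12.7% of all genes and in 17.8% of the genes at or above the median level. After quantile normalisation it was highest in 28 of the 48, or 58.3%, and in 11.4% of all genes. Averaged over the 5 immune genes, its log2 values lay 1.67 above the control mean, and those of the other Aldara mice lay 0.95 to 1.19 above it. Averaged over the 31 constitutive genes the figures were 0.19 and 0.05 to 0.10. The standard deviation of all log2 values on its array was 1.88, against 1.83 to 1.86 on the other 9, and the part of this in the proteasome values was not tested. Without this mouse the differences of the immune genes were smaller and still called, at 1.88 for Psmb8, 1.07 for Psmb9, 0.79 for Psmb10, 0.70 for Psme1 and 0.84 for Psme2, and 10 of the 31 constitutive genes were higher.

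Genes that act before and after the proteasome were compared by the same test. Of 12 genes that trim peptides or carry them to MHC class I, 8 were higher and 0 lower, against 12.4% and 21% of all probesets. The median difference of the 12 was 0.38. B2m, the light chain of MHC class I, measured 11.69 to 11.78 in control mice and 13.28 to 13.33 in Aldara mice, a rise of 1.57 (standard error 0.03, adjusted p = 7.7e-12 from limma). Tap1, a subunit of the transporter that brings proteasome products into the endoplasmic reticulum, rose by 1.90 (standard error 0.10, adjusted p = 6.3e-08 from limma). Tapbp, which tethers class I to the transporter, rose by 1.51, and Erap1, which trims the peptides there, by 0.92. The 4 genes of the list that did not pass were Npepps, Thop1, Calr and Canx.

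Of 8 measured transcription factors that act on the genes of the immunoproteasome or of class I, 6 were higher and 0 lower. The shares of all probesets were 12.4% and 21%. Irf7, an interferon-induced activator of further interferon genes, measured 6.69 to 6.89 in control mice and 10.13 to 11.16 in Aldara mice, a rise of 3.77 (standard error 0.15, adjusted p = 4.0e-09 from limma). Irf9, the DNA-binding part of the factor that answers type I interferon, rose by 1.96, Irf8 by 1.39 and Stat3 by 0.63. Irf1, a known activator of Psmb9 and Tap1, measured 7.34 to 7.69 in control mice and 7.49 to 7.68 in Aldara mice, a difference of 0.05 (adjusted p = 0.559 from limma). Nlrc5, the activator of class I genes, differed by 0.04 (adjusted p = 0.457 from limma). These 2 were thus the factors of the list that did not pass.

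Of 19 measured genes that bind, assemble or regulate the proteasome outside the family, 2 were higher, 2 were lower and 15 did not pass. Their median was -0.03, and 12.4% of all probesets were called higher and 21% lower. Nfe2l2, the activator of the antioxidant response and of some subunit genes, measured 9.07 to 9.21 in control mice and 10.24 to 10.36 in Aldara mice, a rise of 1.17 (standard error 0.04, adjusted p = 2.7e-10 from limma). Pomp, the chaperone with which the barrel matures, was higher by 0.19 (standard error 0.06, adjusted p = 0.0267 from limma). The shuttle factors Ubqln4 and Ubqln2 were lower, by differences of -0.17 and -0.13. Nfe2l1, the factor that restores proteasome genes when the enzyme is inhibited, differed by 0.03 (adjusted p = 0.639 from limma). Of 8 measured heat shock genes, Hspb1 was higher by 0.46, Hspa1a and Hsph1 were lower with differences of -0.12 and -0.11, and the median was 0.01.

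Psmb8 and Psmb9 lie in the MHC class II region of chromosome 17, where the RefSeq annotation of GRCm38.p6 lists Psmb9, Tap1, Psmb8 and Tap2 in a row. All 4 rose, Tap2 by 0.85 (adjusted p = 3.3e-06 from limma). Psme1 and Psme2 lie close together on chromosome 14 with Emc9 between them, which encodes a subunit of a membrane protein insertase and had a difference of -0.06 (adjusted p = 0.369 from limma). Beyond Psme2 follow Rnf31, a ubiquitin ligase subunit that was higher by 0.23, and Irf9. Psmb10 lies between Ctrl and Lcat, and its neighbours had differences of -0.09 (adjusted p = 0.188) and 0.39 (adjusted p = 2.7e-05 from limma).

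The promoters of 3 of the immune genes and that of Psmb5 are shown here, and these 4 were chosen after the motif search. Psmb8 had the largest rise, Psmb9 shares its promoter with Tap1, Psme1 is the immune gene with ISRE-like letters although its rise was the smallest of the 5, and Psmb5 is the counterpart of Psmb8. Each runs from 250 bases before the annotated start to 30 bases after it, in the direction of the gene, from RefSeq on GRCm38.p6. Psmb8 is at chr17:34197945-34198224 on the plus strand, Psmb9 at chr17:34187301-34187580 on the minus strand, Psme1 at chr14:55578244-55578523 on the plus strand and Psmb5 at chr14:54617966-54618245 on the minus strand. Capitals mark a match to GAS-like letters (TTCNNNGAA) in Psmb8, to ISRE-like letters (GAAA, any 2 bases and GAAA again, here on the other strand) in Psme1 and to antioxidant-response-like letters (TGACNNNGC) in Psmb5, and Psmb9 holds none of the 3.
Psmb8: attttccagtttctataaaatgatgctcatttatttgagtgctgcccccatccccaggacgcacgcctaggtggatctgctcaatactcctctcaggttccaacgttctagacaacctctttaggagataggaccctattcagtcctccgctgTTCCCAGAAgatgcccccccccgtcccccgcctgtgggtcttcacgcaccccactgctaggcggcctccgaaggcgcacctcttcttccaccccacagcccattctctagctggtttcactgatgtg
Psmb9: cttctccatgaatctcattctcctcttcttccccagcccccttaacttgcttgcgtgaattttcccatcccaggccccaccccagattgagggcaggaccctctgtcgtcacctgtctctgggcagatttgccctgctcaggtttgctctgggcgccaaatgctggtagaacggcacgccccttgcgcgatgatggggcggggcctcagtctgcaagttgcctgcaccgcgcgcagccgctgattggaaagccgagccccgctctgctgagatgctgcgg
Psme1: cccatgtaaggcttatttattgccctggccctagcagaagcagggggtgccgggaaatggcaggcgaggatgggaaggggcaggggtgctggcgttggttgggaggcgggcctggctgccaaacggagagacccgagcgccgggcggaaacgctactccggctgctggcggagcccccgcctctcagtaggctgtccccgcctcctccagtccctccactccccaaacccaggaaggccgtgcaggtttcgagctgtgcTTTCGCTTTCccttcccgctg
Psmb5: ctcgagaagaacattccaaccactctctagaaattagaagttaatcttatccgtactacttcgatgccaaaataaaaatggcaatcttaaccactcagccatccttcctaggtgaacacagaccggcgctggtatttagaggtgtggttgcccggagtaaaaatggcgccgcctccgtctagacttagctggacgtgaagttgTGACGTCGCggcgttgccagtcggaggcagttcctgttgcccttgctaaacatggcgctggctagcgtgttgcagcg
The match in Psmb8 lies 97 to 89 bases before the start, that in Psmb5 47 to 39 bases before it, and that in Psme1 10 to 19 bases after it. The window of Psmb9 shares 275 of 300 bases with that of Tap1, which is read in the opposite direction.

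Windows of 300 bases, from 250 before to 50 after the start, were used for 40 of the 48 genes, among them all 5 immune genes and 25 of the 31 constitutive ones, and both strands were searched. The other 8 genes had no window in the set searched. The windows of a single chromosome were left out of that set, so that any gene there has none. The set also does not hold every gene of the other chromosomes, and the reason was not traced for each of the 8 genes. A gene was counted if any of its windows matched, whereas the shares for comparison are of single windows. The 40 genes had 43 windows. The ISRE-like letters, the form that interferon-stimulated factors bind, occurred in 1 of 5 immune genes and in 2 of 25 constitutive genes, against 3.44% of the 32851 windows searched. The GAS-like letters, the form that STAT dimers bind, occurred in 1 of 5 and 1 of 25, against 8.3%. The antioxidant-response-like letters occurred in 0 of 5 and 4 of 25, namely Psmb5, Psmb6, Psmc6 and Psmd12, against 12.4%. A CCAAT box, searched as CCAAT, occurred in 1 of 5 and 10 of 25, against 37.4%. These matches describe the letters of the windows and are not binding sites.

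Markers of the cell types of the tissue differed in the same comparison, in which 12.4% of all probesets were called higher and 21% lower. Summed unlogged levels are given for each list to compare the groups of mice within that list only, since the brightest probesets weigh most in a sum. The 8 neuronal markers of the labelled tissue had a summed level of 40981 to 41769 in control mice and 37757 to 38405 in Aldara mice, with 7 of 8 lower, Rbfox3 by a difference of -0.19 and Snap25 by -0.10. All 10 markers of leukocytes and macrophages were higher, and their summed level was 3263 to 3538 in control mice and 12128 to 14641 in Aldara mice. Ptprc, the pan-leukocyte gene, rose by 3.05 and Aif1 by 1.64. Of 7 monocyte markers 5 were higher, Ccr2 by 1.29, and their summed level was 454 to 469 in control mice and 1603 to 2797 in Aldara mice. The values have no zero, so that no marker can be called absent. Of 11 markers of T and natural killer cells 8 were higher and 1 lower, with summed levels of 1065 to 1198 and 1588 to 2118, while Cd3e had a difference of 0.11 that did not pass and Cd3g was higher by 0.51. Of 7 microglial markers 4 were higher and 2 lower, with summed levels of 2701 to 3131 and 4112 to 4720, Tmem119 being higher by 0.86 and P2ry12 having a difference of 0.02 that did not pass. Of the markers of B cells, neutrophils and endothelium, 1 of 4, 1 of 6 and 4 of 6 were higher and 0 lower. Of 7 astrocyte markers 3 were higher and 4 lower, and of 6 oligodendrocyte markers 1 was higher and 1 lower.

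In Aldara mouse 5, whose immune subunits were the highest, the mean difference of the monocyte markers was 1.97, against 1.38 to 1.60 in the other Aldara mice, and that of the T and natural killer cell markers was 0.77, against 0.46 to 0.56. The mean of the leukocyte and macrophage markers was 1.97 in this mouse, within the 1.92 to 2.21 of the others, and that of the microglial markers was 0.14, below their 0.20 to 0.33. Within the monocyte list, Ccr2, Plac8, Ms4a4c and S100a4 were highest in Aldara mouse 5, and Ms4a7, Chil3 and F10 in Aldara mouse 1. Outside the cell markers, the called peptide genes Tap1, Tap2, Tapbp, Tapbpl, Erap1, Lap3 and Pdia3 were highest in Aldara mouse 5 too. B2m was highest in Aldara mouse 1, at 13.33 against 13.32 in Aldara mouse 5. Among the called transcription factors, Irf2, Irf7, Irf9 and Stat2 were highest in Aldara mouse 5, and Irf8 and Stat3 in Aldara mouse 1. The proteasome genes of this brain thus stood out together with some immune cell markers and most of these related genes, and not with the others. The cause was not tested.

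**Figure D5:**
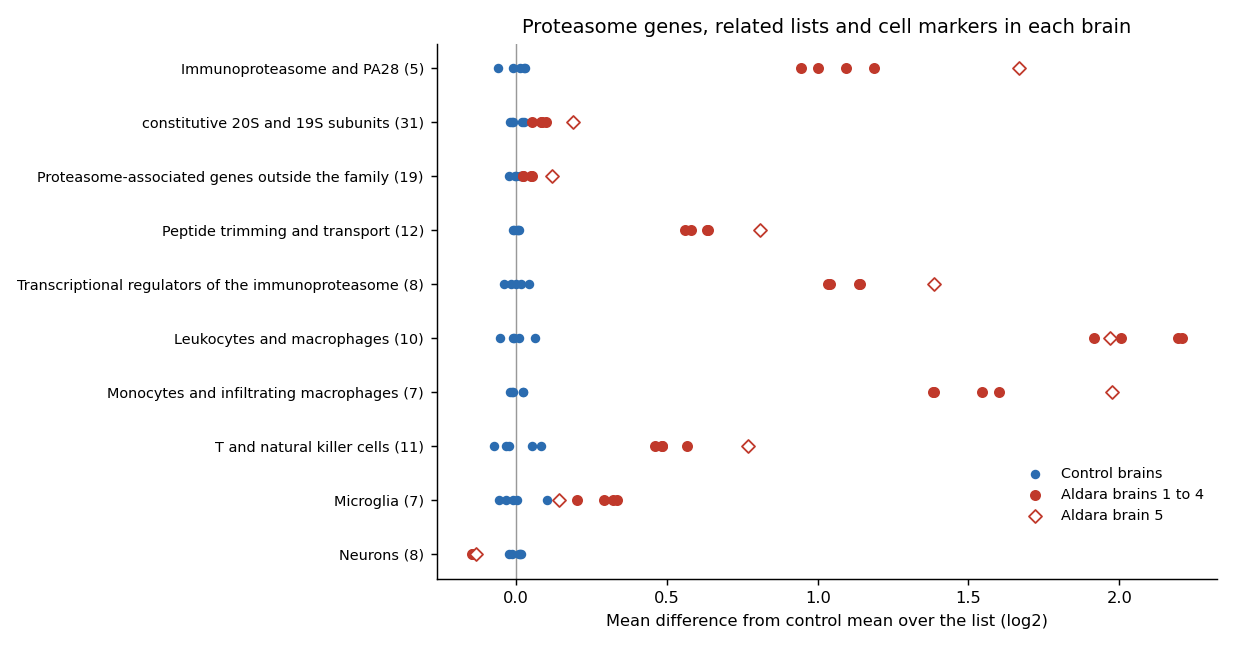
Mean log2 difference from the control mean (horizontal axis) in each of the 10 brains for lists of proteasome genes, of antigen processing genes and their regulators, and of cell type markers; each point is 1 brain, and Aldara mouse 5 is drawn as an open diamond. Aldara mouse 5 lies at 1.67 for the 5 immune proteasome genes, above the 0.95 to 1.19 of the other Aldara mice.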

How the data were processed

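RNA from 10 perfused whole brains was measured with 1 array per mouse, 5 per group, and groups came from the sample labels. The authors deposited log2 values, obtained in GeneSpring GX by RMA. This method subtracts background, quantile-normalises the probes and summarises each probeset. The library file, annotation release and genome build of the arrays are not given in the sources used here, and scanner values were not used. Scan dates and other batches were not given there either. Gene symbols came from the platform annotation, and of 28856 probesets the 23410 with a symbol were tested.

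Tests used limma 3.58.1 (lmFit, eBayes) in R 4.3.3, without a block. Intervals of pair differences used the pooled spread of both groups. The test was run on simulated data with 200 of 23410 probesets changed, where 80% of 1.2-fold and 98% of 1.5-fold changes were found and 12 of 201 calls were false.

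The proteasome genes, the 4 pathway lists and the 10 marker lists were chosen with earlier results of these data known. Every proteasome gene could be named, and from each pathway list up to 4 genes with the smallest p and from each marker list the first 2. Further list genes are named where a count was small or where Aldara mouse 5 is set beside the other mice, chosen after their values were seen. Alternatives were other scalings, probeset filters, an intensity trend with a robust prior, array weights, the mean of a gene's probesets, the methods' t-test, the replicate number as a block and leaving out each array. Protein sequences were not used here.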

Additional observations from a re-analysis of the deposited data

Results flagged for a closer look

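In 54 sets of 5 mice (22 proteasome genes and 5 pairs, each in both groups), the gap between an extreme mouse and its nearest neighbour was compared with the range of the set, and 10 gaps exceeded 0.71 of the range, where chance gives about 1 set in 20. In Aldara mouse 5 the log2 value stood above the other Aldara mice in Psmb8 (9.46), Psme2 (10.82), Psma4 (10.37) and Psmb4 (11.80), and so did its difference of Psmb8 against Psmb5 (-2.49). Control mouse 2 stood below the other control mice in Psmb8 (6.48) and Psma1 (10.46). Control mouse 4 stood below them in Psme4 (10.10) and Psma6 (10.88), and control mouse 5 in Psmb3 (11.92). The calls of Psmb8, Psme2, Psma1, Psma4, Psma6, Psmb3 and Psmb4 held without the mouse concerned.

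The probeset that carries the symbols of both Psme2 and Psme2b lay outside the gene-level comparison, and it rose by 1.199 on the log2 scale.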

How the results depend on the processing

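Psmb8, Psmb9, Psmb10, Psme1 and Psme2 were called higher under all 10 fits without 1 array and under the other alternatives, except that Psmb8 was not tested among the probesets at or above the median, where 4 of 4 were higher. Their differences ranged over the alternatives from 1.88 to 2.14, 1.07 to 1.24, 0.79 to 0.99, 0.70 to 0.84 and 0.84 to 0.98. Without 1 array the changes of the pairs ranged from 1.85 to 2.10 for Psmb8 against Psmb5, 1.05 to 1.19 for Psmb9 against Psmb6, 0.77 to 0.95 for Psmb10 against Psmb7, 0.66 to 0.81 for Psme1 against Psme3 and 0.80 to 0.94 for Psme2 against Psme3. Of the 48 genes, 23 were higher, and 10 were with arrays centred on a common median. Of the 31 constitutive genes, 17 were higher, and 5 were with arrays so centred. Without 1 array, 15 to 24 of the 48 and 10 to 18 of the 31 were higher, with 15 and 10 without Aldara mouse 5, 15 and 10 without control mouse 5, and 11 of the 31 without Aldara mouse 1 or 4. Of the 48 genes, 0 were lower, but Psmd9 was called lower with arrays centred on a common median, with quantile normalisation, with the replicate block and without control mouse 2, so that the count was then 1, and it was 0 to 1 without 1 array. The single genes examined were the immune genes, Psmb5, Psmb6, Psmb7, Psme3, Psme4 and the other called genes whose groups did not overlap. For these, 31 calls were lost and 429 kept their side of the threshold over all alternatives, and Psme3 was called higher with the median difference set to 0. The called genes with overlapping groups were not among them, namely Psmc2, Psmc5, Psmd6, Psmd7, Psmd11 and Psmg4. Each of these also lost its call somewhere among the alternatives. The cause of these moves was not tested.

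There was no clear sign that the replicate numbers pair the mice, since the deviations of mice with the same number correlated at -0.11 to 0.25. Control mice 1 and 2 correlated best with the Aldara mouse of their number, and control mice 3, 4 and 5 with another. So few correlations cannot exclude a pairing. With the replicate number as a block, 13 of the 48 genes and 8 of the 31 were higher and 1 was lower. The pairs kept their changes of 2.03, 1.14, 0.88, 0.75 and 0.89, and the exact sign-flip test over 5 blocks gave p = 0.0625, the smallest it can give.

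With 5 arrays per group, changes of 1.2-fold in either direction were recovered in 80% of simulated cases. The simulation changed 200 of 23410 probesets, whereas 12.4% of probesets were called higher and 21% lower in the data. The recovered share therefore does not carry over to these data. The differences of all 31 constitutive genes were smaller than 1.2-fold, and 17 of them passed.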
